A study of Mus musculus with 6 samples.

Results

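The epidermal differentiation complex (EDC) is a cluster of genes that keratinocytes switch on in the last layers of the epidermis, when they turn into the dead, flattened cells of the stratum corneum. Loricrin, involucrin, the small proline-rich proteins (SPRR) and the late cornified envelope proteins (LCE) are cross-linked by transglutaminases under the cell membrane into the cornified envelope. Filaggrin and its relatives, which carry an S100 calcium-binding domain fused to long repeats, pack keratin filaments and are later cut into small molecules that hold water. The genes were chosen by name and position, as protein-coding genes of chromosome 3 whose symbol begins with Lce or Sprr or is Lor, Ivl, Flg, Flg2, Hrnr, Rptn, Crnn, Kprp, Crct1 or Smcp. This gave 46 of the 55291 genes in the count table. They comprised 14 Lce1, 6 Lce3, 1 Lce6, 2 Sprr1 and 11 Sprr2 genes, Sprr3 and Sprr4, 5 genes of the S100-fused family (Flg, Flg2, Hrnr, Rptn and Crnn) and 5 further genes (Lor, Ivl, Kprp, Crct1 and Smcp). The genes span 1319.2 kb, from base 92080271 to base 93399442 of chromosome 3 in mm10.

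Bulk RNA sequencing compared dorsal skin, taken after shaving, of 3 mice with the tight skin mutation (TSK) and of 3 wild-type littermates (WT), with 1 library per mouse. All mice were C57BL/6, and the labels give an age of 6 to 8 weeks (8 weeks in the study's methods) and name no treatment. TSK mice carry an internal duplication in Fbn1, the gene of the microfibril protein fibrillin 1, in every cell, and the WT mice lack it. The labels give all mice as female, whereas the study's methods describe males. The Y-linked gene Ddx3y was at 56.7 to 72.8 CPM (counts per 1000000 counts of a library) in all 6 libraries. Females lack this gene, so the libraries came from males.

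Of the genes shown here, Lor, Sprr1a and Lce1m rose in TSK skin and the groups of Ivl overlapped. Flg2 is the most abundant EDC gene and just missed the threshold. The sequences just upstream of these 5 genes, none of them Sprr2, are printed in the direction of transcription. They are RefSeq's and run from 250 bases before to 50 bases after each gene's start in GRCm38.p6, all but Flg2 on the minus strand: Lor at chr3:92083093-92083392, Sprr1a at chr3:92485832-92486131, Lce1m at chr3:93019012-93019311, Ivl at chr3:92573686-92573985 and Flg2 on the plus strand at chr3:93197023-93197322. Capitals mark the letters TGANTCA, a loose form of the site that AP-1 factors are known to bind, and TATAAA, the TATA box. The usual AP-1 site has G or C at the free position, as in Lor, Sprr1a and Ivl, whereas the Flg2 match has A.
Lor: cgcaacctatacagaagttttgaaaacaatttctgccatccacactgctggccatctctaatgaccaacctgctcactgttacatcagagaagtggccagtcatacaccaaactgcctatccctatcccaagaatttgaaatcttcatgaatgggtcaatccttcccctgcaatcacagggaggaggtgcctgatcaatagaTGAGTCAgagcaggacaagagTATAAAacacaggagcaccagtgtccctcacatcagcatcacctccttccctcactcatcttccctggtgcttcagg
Sprr1a: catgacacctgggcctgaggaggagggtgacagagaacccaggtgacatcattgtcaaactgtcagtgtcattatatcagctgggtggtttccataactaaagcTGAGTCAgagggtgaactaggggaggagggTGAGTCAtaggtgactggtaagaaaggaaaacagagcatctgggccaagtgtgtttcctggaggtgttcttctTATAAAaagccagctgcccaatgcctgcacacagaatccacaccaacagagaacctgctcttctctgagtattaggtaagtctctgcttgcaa
Lce1m: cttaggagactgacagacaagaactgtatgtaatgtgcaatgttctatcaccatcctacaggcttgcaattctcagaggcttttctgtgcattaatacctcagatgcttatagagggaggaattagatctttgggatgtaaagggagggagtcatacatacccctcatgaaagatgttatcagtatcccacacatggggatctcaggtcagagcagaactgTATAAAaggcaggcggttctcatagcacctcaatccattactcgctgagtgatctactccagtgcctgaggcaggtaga
Ivl: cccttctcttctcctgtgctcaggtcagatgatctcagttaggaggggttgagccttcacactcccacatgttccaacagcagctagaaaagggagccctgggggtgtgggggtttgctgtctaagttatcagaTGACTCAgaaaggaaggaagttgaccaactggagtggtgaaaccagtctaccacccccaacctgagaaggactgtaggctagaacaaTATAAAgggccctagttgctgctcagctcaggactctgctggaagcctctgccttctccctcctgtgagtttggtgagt
Flg2: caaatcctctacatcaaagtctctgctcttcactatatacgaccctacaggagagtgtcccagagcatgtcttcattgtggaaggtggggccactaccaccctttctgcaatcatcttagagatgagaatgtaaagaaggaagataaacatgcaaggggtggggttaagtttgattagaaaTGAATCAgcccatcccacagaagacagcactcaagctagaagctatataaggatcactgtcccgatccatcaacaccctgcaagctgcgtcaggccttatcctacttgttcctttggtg

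A match to TGANTCA on either strand was found in the windows of Lor, Sprr1a, Ivl and Flg2, and none in that of Lce1m. It began 48 bases before the start in Lor, 146 and 116 bases before it in Sprr1a, 116 bases before it in Ivl and 69 bases before it in Flg2. A window was available for 42 of the 46 EDC genes and not used for Lce1f, Kprp, Crct1 and Sprr2j-ps. TGANTCA was present in 15 of the 42 windows (35.7%), against 7.81% of all 32851 windows in the table. The matches lay in 7 of 10 Sprr2 windows, both Sprr1 windows, 4 of 5 S100-fused windows, Lor and Ivl, and in 0 of 13 Lce1 and 0 of 6 Lce3 windows. TATAAA was present in 20 of the 42 windows (47.6%, against 13.6% of all windows), but in only 2 of 13 Lce1 windows, that of Lce1m among them. CACCC, the core of sites for KLF factors, was in 21 of 42 (50%, against 57.5%), and AACNNGTT, the core of sites for grainyhead-like factors, in 1 of 42 (2.38%, against 4.2%). All 4 motifs were searched on both strands, and TGANTCA and TATAAA did not overlap in the printed windows. In all 7 Sprr2 windows with TGANTCA, a match began 193 to 198 bases before the start and TATAAA 29 bases before it. These windows may therefore not be separate observations, and their likeness was not tested. Matches to TGANTCA stood upstream of Lor and Sprr1a, which rose, and of Ivl and Flg2, which did not pass the test.

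Totals were 17561453 to 19219814 estimated counts per library. Levels are given as CPM with TMM scaling, which corrects library sizes for differences in composition. WT libraries had factors of 0.8227 to 1.025 and TSK libraries of 1.063 to 1.129, so the choice of scaling touches every comparison between the genotypes. Fbn1 stood at 261, 351 and 296 CPM in the WT mice, always listed in the order 1 to 3, and at 1450, 2053 and 1781 CPM in the TSK mice (log2 fold change 2.54, SE 0.22, edgeR adjusted p = 0.00327). The epidermis was represented in every library, with the basal keratin Krt5 at 1117 to 2738 CPM and the suprabasal keratin Krt10 at 632 to 1499 CPM, and the tissue also held much muscle, with Ttn at 66350 to 147733 CPM.

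To ask how the EDC differed between the genotypes, its genes were read from an edgeR quasi-likelihood test over all 19971 genes that had enough counts. Of the 46 EDC genes, 27 were tested, 10 had too few counts and 9 had fewer than 0.5 counts over all 6 libraries together. Lor, Sprr1a, Sprr4, Kprp, Crct1 and Lce1m rose in TSK skin, which is 6 of 27 at an adjusted p below 0.05, while 2.71% of all tested genes were higher at that threshold. No EDC gene fell (0 of 27, against 0.681% of all tested genes), with 10 of the 27 at an unadjusted p below 0.05 in either direction, as were 20% of all tested genes. At the study's thresholds, an adjusted p below 0.01 and a change of more than 2.5-fold, Lor alone was left with edgeR (0.255% of all tested genes were higher by both). With DESeq2, the tool the study used, those thresholds left 5 genes, Lor, Sprr1a, Sprr4, Kprp and Crct1. In that run 310 genes of the table (1.5% of those with an adjusted p) were higher by both. The run is not the study's own analysis, which reported fewer genes higher. The lowest TSK library was above the highest WT library in 8 of the 27, among them the 6 named, and in 14.1% of all tested genes. The opposite held in 0 of the 27 and in 10.6% of all tested genes. DESeq2, run as an alternative, gave 7 EDC genes higher, the same 6 and Flg2 (5.5% of the 20629 genes with an adjusted p were higher), and 1 lower, Sprr1b (1.98% were lower).

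As a description, the median log2 fold change of the tested EDC genes was 0.52, with 22 of 27 above 0, and that of all tested genes was -0.03. The EDC median was 0.19 without TSK 1 and 0.28 without WT 2, with 18 of 28 tested genes above 0 in each case. Whether a gene was tested depended in part on its level in the higher group, as for Sprr4. In bulk skin, a smaller number of cells of a type and less RNA in each of them cannot be told apart. The 6 calls rested on small groups. Without WT 3 no EDC gene passed (Lor had an adjusted p of 0.0561), and only 45 genes of the whole table were higher, against 542 with all libraries. Without WT 2, Lor alone passed, and without TSK 1, Lor, Kprp and Crct1 passed.

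**Figure D1:**
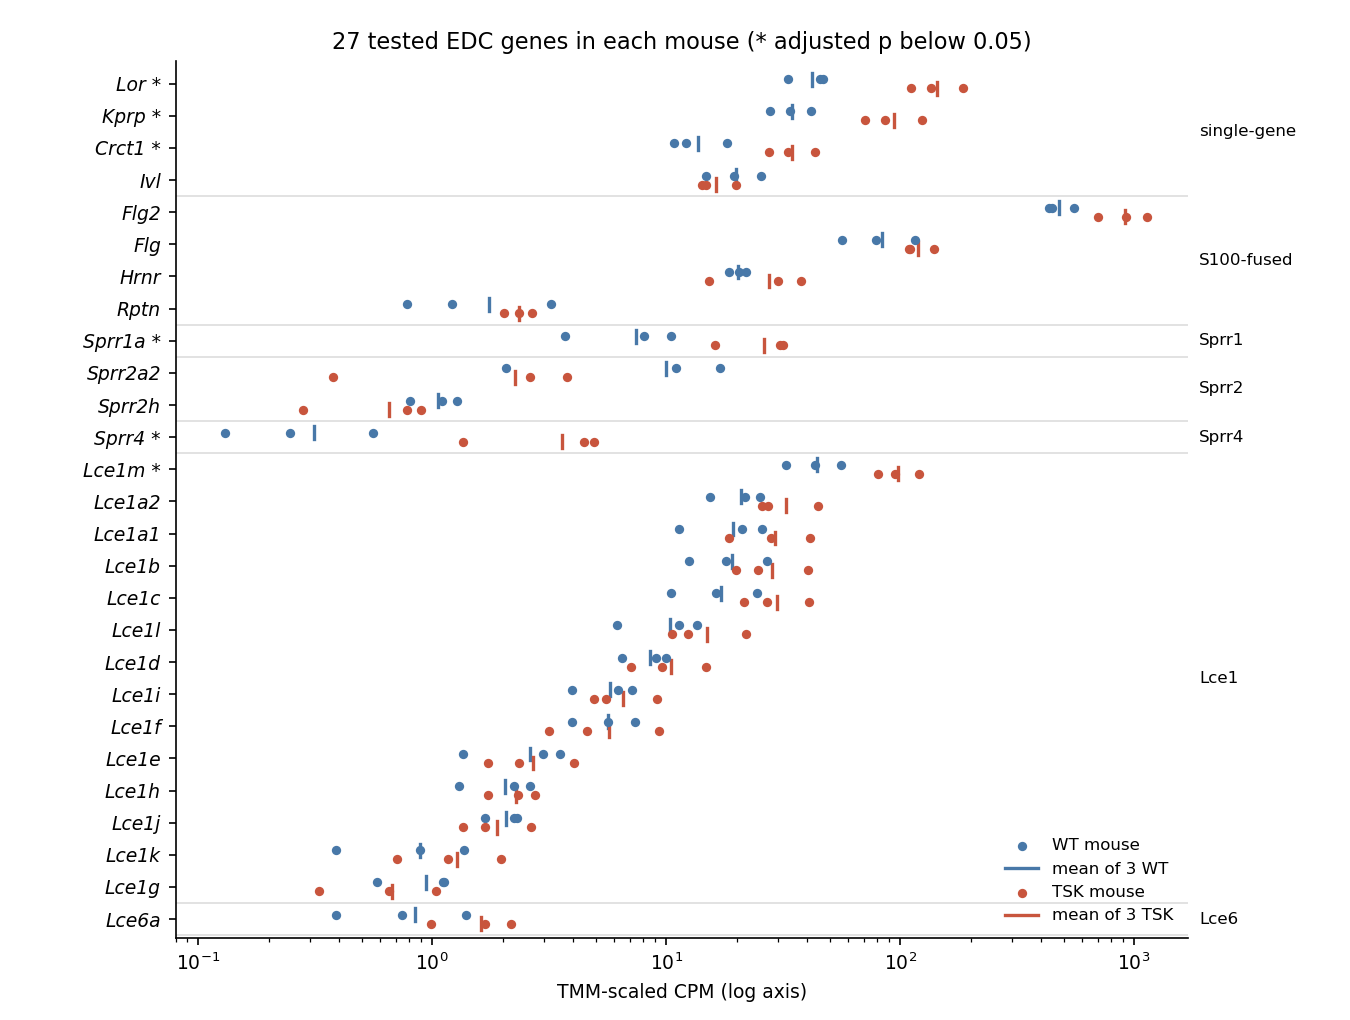
TMM-scaled CPM on a log axis for the 27 tested EDC genes, grouped by family, with a point for each mouse (blue WT, red TSK) and a bar at the mean of 3 mice. The TSK points lie above all WT points in the 6 genes marked with an asterisk and in Flg2 and Lce1a2, and Flg2 is the most abundant gene in both genotypes.

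Lor encodes loricrin, the most abundant protein of the cornified envelope in skin. It lies at bases 92080271 to 92083142 on the minus strand. The WT mice had 46.9, 33.1 and 45.6 CPM and the TSK mice 185, 136 and 111 CPM. Every TSK library was more than 2-fold above every WT library, and the log2 fold change was 1.78 (SE 0.22, adjusted p = 0.00913). Per kb of exon, its mean deposited CPM was 21.7 in WT, below those of 5 Lce1 genes (Lce1m, Lce1b, Lce1a2, Lce1a1 and Lce1c), and 88.6 in TSK, below that of Lce1m alone.

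Ivl encodes involucrin, an early scaffold of the envelope to which loricrin and the SPRR proteins are attached. Its level was 19.5, 25.4 and 14.8 CPM in WT and 19.8, 14.8 and 14.2 CPM in TSK. The groups overlapped (log2 fold change -0.29, SE 0.22, adjusted p = 0.505). The ratio of Lor to Ivl inside each library was therefore 2.41, 1.3 and 3.08 in WT and 9.35, 9.23 and 7.8 in TSK. The groups did not overlap, and the difference of 2.04 on the log2 scale reached the smallest p that 3 mice against 3 allow (exact permutation test, two-sided, p = 0.1).

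Kprp, the gene of a keratinocyte proline-rich protein, lies at bases 92823074 to 92827247. It was at 41.8, 27.9 and 34 CPM in WT and at 124, 86.5 and 71 CPM in TSK (log2 fold change 1.44, SE 0.23, adjusted p = 0.0187). Crct1, a small cysteine-rich gene at bases 93014205 to 93015687, was at 18.2, 10.8 and 12.2 CPM in WT and at 43.1, 33.2 and 27.6 CPM in TSK (log2 fold change 1.33, SE 0.23, adjusted p = 0.0234). Both were higher in every TSK mouse than in any WT mouse, and in both, as in Lor, TSK 1 was the highest and TSK 3 the lowest of the TSK libraries. Without WT 2 or without WT 3, neither passed. Smcp, known from sperm, had 1 count in all, in TSK 1.

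Among the S100-fused genes the levels ran over more than 2 orders of magnitude, and none of the 4 tested passed. Flg2, the gene of filaggrin 2, held most of the EDC signal, 55.1% ± 4.29 of the summed EDC CPM in WT and 55.5% ± 1.98 in TSK (SD, n = 3), in part because its transcript is long (20803 exon bases). Per kb, its mean deposited CPM was 21.1 in WT and 48.3 in TSK, in both below that of Lor. Its level was 552, 435 and 448 CPM in WT and 1131, 925 and 699 CPM in TSK. The groups did not overlap, but the adjusted p was 0.0587 (log2 fold change 0.94, SE 0.22). It passed with DESeq2 (adjusted p = 0.000546) and with scaling by library size only (0.0147), and not with limma-voom (0.0616).

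Flg, the gene of profilaggrin, was at 116, 56.6 and 78.7 CPM in WT and at 140, 110 and 109 CPM in TSK, so WT 1 lay within the TSK range (log2 fold change 0.51, SE 0.25, adjusted p = 0.297). Hrnr (hornerin) had a log2 fold change of 0.44 (adjusted p = 0.435), and TSK 3, at 15.2 CPM, was below all WT libraries. Flg overlaps the pseudogene Rplp0-ps1, and Hrnr and Rptn overlap the annotated gene Gm37245 on the other strand. Rptn also overlaps the annotated gene Gm37857 on its own strand. Rptn (repetin) was at 0.778 to 3.23 CPM in WT and 2.02 to 2.67 CPM in TSK (log2 fold change 0.43, adjusted p = 0.659). Crnn (cornulin), better known from the lining of the oesophagus, had 1, 1 and 2 counts in WT and 11, 7 and 10 in TSK. The groups did not overlap, but these counts were too low to be tested. The ratio of Flg2 to Flg was 6.04 ± 1.5 in WT and 7.65 ± 1.08 in TSK, and its groups overlapped (exact permutation test, two-sided, p = 0.2).

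The SPRR genes did not move together. Sprr1a, which is known to be induced in stressed and wounded epithelia, was at 10.5, 3.69 and 8.01 CPM in WT and at 30.8, 16.1 and 31.5 CPM in TSK (log2 fold change 1.81, SE 0.38, adjusted p = 0.0397). Sprr1b, the other gene of its family, had 11, 10 and 25 counts in WT and 6, 2 and 3 counts in TSK. Sprr1a was thus higher and Sprr1b lower in every TSK library, though Sprr1b had too few counts for the main test. DESeq2, which kept it, gave a log2 fold change of -2.37 (adjusted p = 0.0398).

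Sprr4, known to respond to ultraviolet light, had the greatest log2 fold change of the 27 EDC genes tested with edgeR, though on log2(deposited CPM + 1) its change (1.83) was below that of Lor (2.02). Its counts were 10, 2 and 4 in WT and 86, 29 and 105 in TSK, or 0.556, 0.13 and 0.248 CPM against 4.46, 1.36 and 4.94 CPM. The log2 fold change was 3.46 (SE 0.63, adjusted p = 0.0268), and the gene entered the test only through its TSK counts. Its gene model in the annotation holds 231 bases. The calls of Sprr1a and Sprr4 were lost with limma-voom (adjusted p = 0.0513 and 0.0806) and without WT 2, WT 3, TSK 1 or TSK 3.

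Of the 11 Sprr2 genes, Sprr2a2 and Sprr2h were tested and neither passed. Sprr2a2 was at 11, 2.07 and 17 CPM in WT and at 3.78, 2.62 and 0.376 CPM in TSK. The groups overlapped through WT 2, and the log2 fold change of -2.16 had an SE of 0.80 (adjusted p = 0.179). Of the 50-base stretches of its transcripts, 96.5% also occur in other genes, chiefly Sprr2a1 and Sprr2a3, so the split of reads among these 3 genes is uncertain. Their sum was 11.2, 2.07 and 17.8 CPM in WT and 3.78, 2.62 and 0.376 CPM in TSK. Sprr2h was at 0.808 to 1.28 CPM in WT and 0.281 to 0.894 CPM in TSK (log2 fold change -0.71, adjusted p = 0.417). The remaining 7 Sprr2 genes and Sprr3, an SPRR gene of mucosal epithelia, had at most 1 count in any library. The ratio of Sprr1a to the 3 Sprr2a genes was 0.945, 1.78 and 0.449 in WT and 8.16, 6.14 and 83.7 in TSK, without overlap (exact permutation test, two-sided, p = 0.1, the smallest possible).

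**Figure D2:**
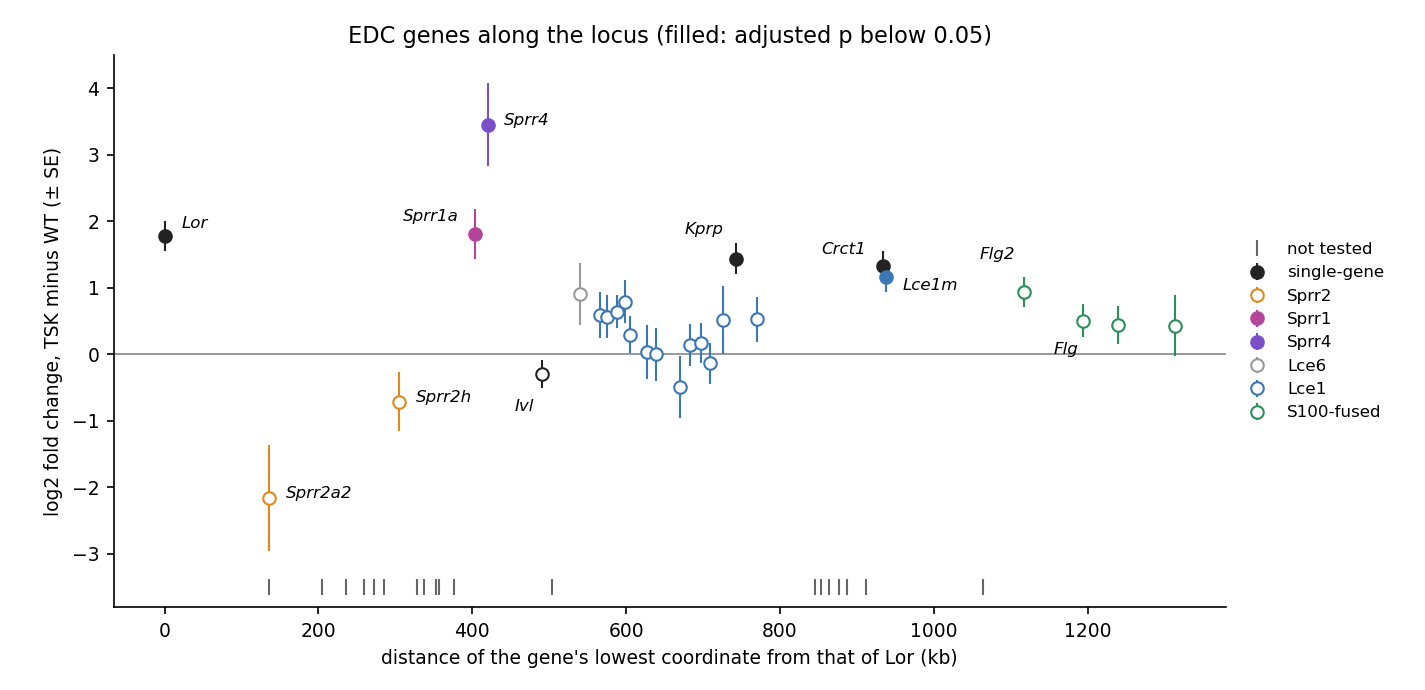
Log2 fold change, TSK minus WT, with its SE (edgeR, 3 mice per group) for each tested EDC gene against the distance of its lowest coordinate from that of Lor in kb, coloured by family and filled where the adjusted p was below 0.05. Ticks at the bottom mark the 19 genes not tested. The 6 filled points are Lor, Sprr1a and Sprr4 between the Sprr2 and Lce1 genes, Kprp within the Lce1 block, and Crct1 and Lce1m beyond it, with open points in between.

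Among the LCE genes, Lce1m alone rose. It was at 56, 32.5 and 43.3 CPM in WT and at 120, 94.7 and 80.5 CPM in TSK (log2 fold change 1.16, SE 0.22, adjusted p = 0.0304), and per kb of exon it was the most abundant EDC gene in both genotypes, with a mean deposited CPM per kb of 43 in WT and 113 in TSK. It lies at bases 93017810 to 93019060, next to Crct1 and away from the block of the other Lce1 genes. The call was lost without WT 2, WT 3, TSK 1 or TSK 2. The other 13 Lce1 genes had log2 fold changes of -0.49 (Lce1g) to 0.79 (Lce1c), and none passed, though Lce1a1, Lce1a2 and Lce1c did with basal keratinocyte markers as the reference for scaling. Lce1a2, one of the most abundant of these per kb, was at 25.2, 15.4 and 21.8 CPM in WT and at 44.6, 25.6 and 27.3 CPM in TSK (log2 fold change 0.64, SE 0.25, adjusted p = 0.201). Its groups just failed to overlap, while those of the other 12 did overlap.

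Lce1b (log2 fold change 0.57, adjusted p = 0.373) and Lce1a1 (0.59, adjusted p = 0.382) lay close to Lce1a2 in level per kb, with mean deposited CPM per kb of 27.7, 25.7 and 26.9 in WT and 47.8, 45.4 and 49.7 in TSK for Lce1b, Lce1a1 and Lce1a2. The 13 Lce1 genes other than Lce1m share up to 27.1% (Lce1i) of their 50-base stretches with other genes, whereas Lce1m shares none, so the counts of Lce1m are not divided with its relatives. Inside each library, the ratio of Lce1m to the sum of the other Lce1 genes was 0.372, 0.431 and 0.362 in WT and 0.511, 0.648 and 0.676 in TSK. The groups did not overlap (exact permutation test, two-sided, p = 0.1, the smallest possible). Lce6a was at 0.389 to 1.39 CPM in WT and 0.988 to 2.18 CPM in TSK (log2 fold change 0.91, adjusted p = 0.329). The Lce3 genes, known to be induced in injured or inflamed epidermis, had 0 to 4 counts in any library of either genotype.

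The summed level of all 46 EDC genes was 1048, 725 and 850 CPM in the WT mice and 2080, 1602 and 1287 CPM in the TSK mice. The TSK mean was 1.89 times the WT mean. The groups did not overlap, and the exact permutation test gave its smallest possible p of 0.1 (two-sided). Without Flg2, the most abundant member, the ratio was 1.86. On the CPM as deposited, without TMM scaling, it was 2.25.

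A ratio of genes within a library does not depend on scaling between libraries. The sum of 7 markers of basal keratinocytes, the dividing cells below the layers that express the EDC, was 7638, 4914 and 5263 CPM in WT and 5838, 3510 and 3481 CPM in TSK, with overlap. All 7 had log2 fold changes below 0, from -0.61 to -0.27, and none passed the test (Krt5 -0.60 and Krt15 -0.30). The ratio of summed EDC CPM to these markers was 0.137, 0.147 and 0.162 in WT and 0.356, 0.456 and 0.37 in TSK, a difference of 1.4 on the log2 scale (exact permutation test, two-sided, p = 0.1). Against Krt1 and Krt10, keratins of the spinous layer just below, the difference was 0.56 (0.832 ± 0.0849 in WT and 1.23 ± 0.13 in TSK, SD, n = 3, exact p = 0.1). The ratio of Krt1 and Krt10 to the basal markers differed by 0.84 (0.181 ± 0.0322 against 0.322 ± 0.0468, exact p = 0.1). None of these 3 ratios overlapped between the genotypes.

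**Figure D3:**
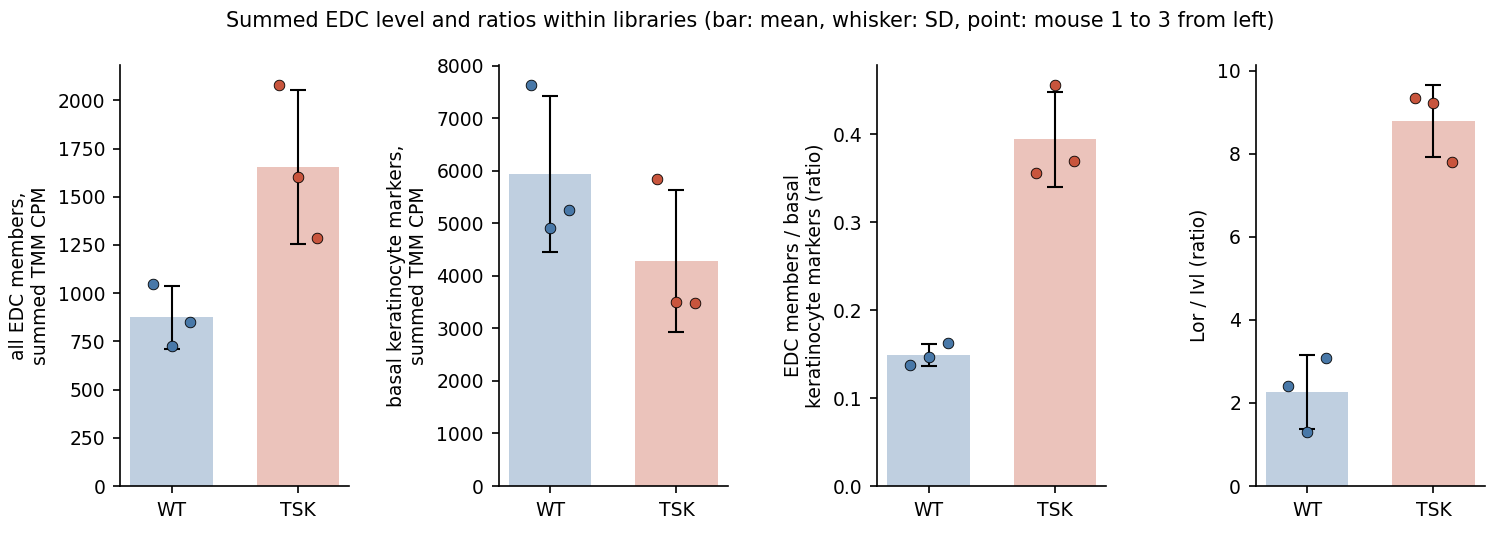
Summed TMM-scaled CPM of the 46 EDC genes and of 7 basal keratinocyte markers, the ratio between both sums, and the ratio of Lor to Ivl, with bars for the mean, whiskers for the SD and points for mice 1 to 3 from the left (3 per genotype). The basal markers overlap between WT and TSK, while the EDC sum and both ratios are higher in every TSK mouse.

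Within the EDC, the share of the summed CPM taken by Lor was 4.8% ± 0.487 in WT and 8.67% ± 0.208 in TSK (SD, n = 3), and that of Kprp 3.95% ± 0.0832 and 5.63% ± 0.299. The shares of both genes were higher in every TSK library than in any WT library. The share of Ivl was 2.37% ± 0.987 in WT and 0.992% ± 0.0952 in TSK, and that of Lce1f 0.638% ± 0.0807 and 0.327% ± 0.108. Shares add up to a whole, so a larger share of 1 gene lowers those of others.

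Genes that act with the EDC were read from the same test, in lists written from general knowledge. The counts in these lists stand beside 2.71% of all tested genes higher and 0.681% lower at the same threshold. Of 16 tested partners of the cornified envelope, 6 rose and none fell (median log2 fold change 0.49). Those were Cst6, a protease inhibitor that restrains enzymes of cornification (log2 fold change 2.0, adjusted p = 0.011), Krtdap (1.72), the corneodesmosome genes Cdsn (1.48) and Dsc1 (1.38), the cross-linking enzyme Tgm1 (1.13, adjusted p = 0.0299) and Cnfn (1.03). Tgm1 was at 7.96, 7.84 and 7.70 CPM in WT and at 23.3, 14.4 and 13.9 CPM in TSK. The 2 most abundant of the list, Sbsn (0.46, adjusted p = 0.272) and Dmkn (0.83, adjusted p = 0.0679), did not pass. Of 11 tested enzymes that process filaggrin or loosen the stratum corneum, 4 rose and none fell (median 0.52): the kallikrein proteases Klk5 (log2 fold change 1.6, adjusted p = 0.00888) and Klk7 (1.14), Asprv1, a protease that cuts profilaggrin (1.49, adjusted p = 0.0209), and Hal, which turns filaggrin-derived histidine into urocanic acid (1.07). The protease inhibitor Spink5, the most abundant of that list, had a log2 fold change of 0.14 (adjusted p = 0.724).

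None of the 6 suprabasal keratins passed (median 0.60). TSK 1, the library with the highest EDC sum, was also the highest TSK library in the sum of these keratins (3779, 2711 and 1968 CPM in TSK) and in that of the basal markers. Krt10 was at 0.60 (adjusted p = 0.246), Krt77 at 0.96 (0.083) and Krt1 at -0.23 (0.71). Of 24 tested regulators of late differentiation, Prdm1 (log2 fold change 1.52, adjusted p = 0.00847) and Cebpa (1.43, adjusted p = 0.0351) rose and the AP-1 subunit gene Fosl1 fell (1.72, 2.14 and 5.96 CPM in WT and 0.57, 0.421 and 0.659 CPM in TSK, log2 fold change -2.56, adjusted p = 0.0381). The median of that list was 0.13. Cebpa was at 89.3, 145 and 67.2 CPM in TSK, highest in TSK 2, as was the sum of the adipocyte markers (684, 2111 and 543 CPM). Which cells held its RNA was not tested. Klf4, a factor needed for the skin barrier, did not pass (0.60, adjusted p = 0.0561), nor did the most abundant regulators, Maf (-0.25) and Trp63 (-0.27).

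Of 7 tested stress keratins and epidermal alarm genes, Krt6b fell and the median was 0.19. Krt6b was at 10.5, 0.842 and 23.4 CPM in WT and at 0.415, 0.0935 and 0.188 CPM in TSK (log2 fold change -5.63, SE 1.14, adjusted p = 0.0366). Its WT libraries varied widely, and WT 2 was the lowest and WT 3 the highest of them, as in Sprr2a2. Krt6b entered the test only through its WT counts, so its fold change leans downward for that reason. Krt6a, which is far more abundant, was at -0.27 (adjusted p = 0.534), Krt16 at 0.06 and Krt17 at 0.19. Of 15 tested neighbours of the EDC on chromosome 3 outside the choice of genes, mostly S100a genes, none passed (median -0.02), among them the most abundant, S100a6 (-0.12) and S100a11 (-0.02). In this list Tchhl1, a relative of the S100-fused genes, was at 12.4, 17.2 and 6.21 CPM in WT and at 3.78, 2.24 and 4.61 CPM in TSK. Its log2 fold change was -1.75, and its adjusted p rounded to 0.05 without passing. S100a9 was at -2.21 (adjusted p = 0.0698) and entered the test only through its WT counts. Both genes were lower in every TSK library than in any WT library, as were 10.6% of all tested genes. The opposite held for S100a16 (log2 fold change 0.29, adjusted p = 0.31) and for 14.1% of all tested genes. S100a8, the partner of S100a9 in the protein calprotectin, had 14, 10 and 17 counts in WT and 0, 1 and 1 in TSK, too few to be tested. The locus itself holds 8 more protein-coding genes. Of the 5 tested, 2310050C09Rik (log2 fold change 1.26, adjusted p = 0.03) and 2310046K23Rik (1.15, adjusted p = 0.0485) rose. The other 3 were below 0, among them Prr9 (-1.20, adjusted p = 0.0566), which was lower in every TSK library than in any WT library, and the median of the 5 was -0.08. These genes were listed after the values of the locus had been seen.

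**Figure D4:**
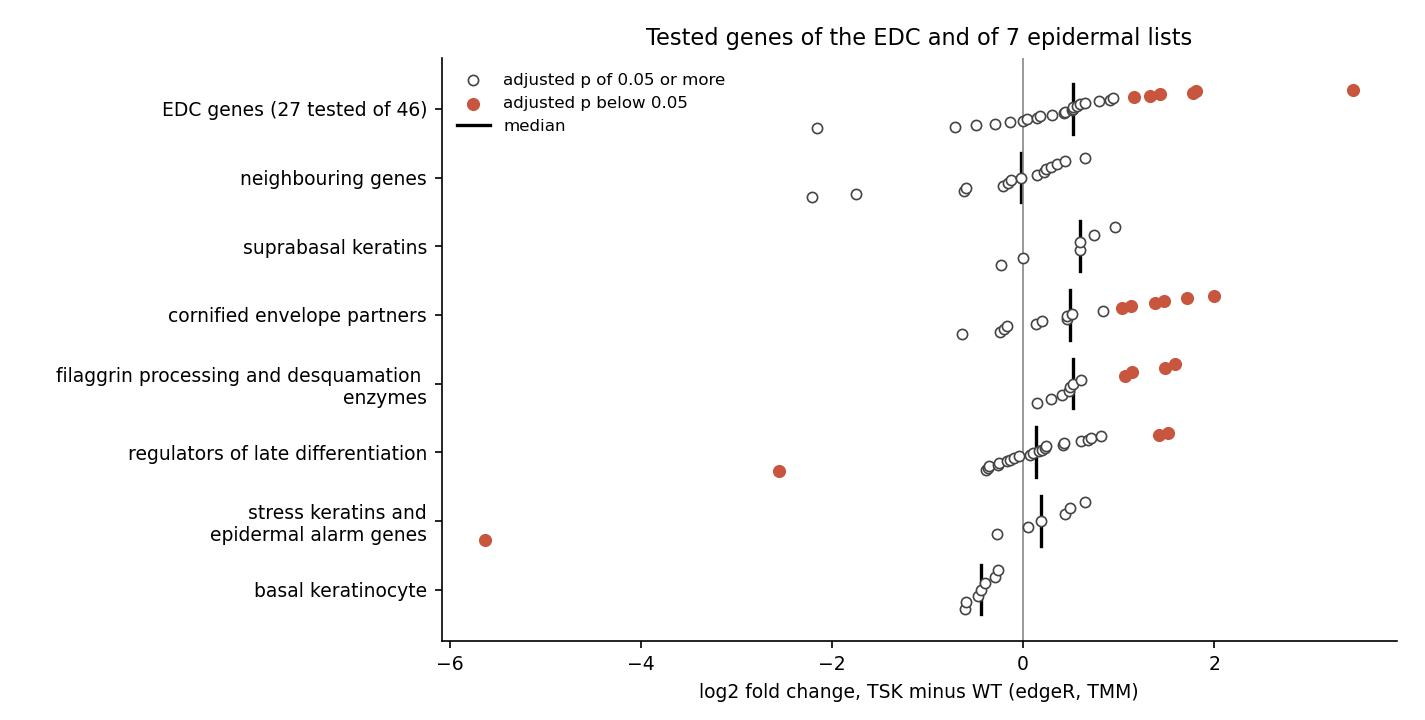
Log2 fold change, TSK minus WT, of each tested gene of the EDC and of 7 epidermal lists, with filled points for an adjusted p below 0.05 and a bar at the median. Filled points lie to the right of 0 in the EDC, the envelope partners and the processing enzymes, on both sides among the regulators, and all basal keratinocyte points lie to the left.

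Markers of other cell types in the skin also differed, and their part in the EDC result was not tested. Over all tested genes, 2.71% were higher and 0.681% lower, and 14.1% were higher in every TSK library than in any WT library. Hair shaft and inner root sheath markers, which belong to growing follicles, summed to 1.93 to 5.17 CPM in WT and 14.5 to 31.3 CPM in TSK, over all 12 in the table. Krt71, Krt25 and Krt27 were higher among the 9 tested, but none of the 9 had 10 counts in every WT library, so they entered the test through their TSK counts and their fold changes lean upward for that reason. Krt71 and Krt25 were at 0 in WT 3. Adipocyte markers summed to 308 to 501 CPM in WT and 543 to 2111 CPM in TSK, with 3 of 7 higher (Plin1, Cfd and Lep) and a median of 2.72, and the most abundant, Plin4, at 0.34 (adjusted p = 0.654). Fibroblast markers summed to 6237 to 10956 CPM in WT and 18439 to 42184 CPM in TSK, with 1 of 8 higher (Dpt, median 1.07). The most abundant, Col1a1 (log2 fold change 1.84, adjusted p = 0.0654) and Col3a1 (1.24, adjusted p = 0.119), did not pass. Skeletal muscle markers summed to 147601 to 266922 CPM in WT and 116219 to 141025 CPM in TSK, with 0 of 10 called (median -0.76, Ttn -0.74 and Myh4 -1.09). Of the 10, 8 were below 0, while Myh1 was at 0.09 and Myh2 at 1.26 (adjusted p = 0.067), the latter higher in every TSK library than in any WT library.

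The remaining lists had no called gene: 6 sebaceous gland genes (median 0.45, Krt79 0.62 and Soat1 0.32), 4 melanocyte genes (0.98, Dct 0.98 and Tyr -0.10) and 5 macrophage genes (0.95, Csf1r 1.06 and C1qa 0.98). The squamous mucosa keratins Krt4, Krt13 and Krt76 were at or near 0, with a summed level of 0.194 to 0.373 CPM in WT and 0.141 to 0.674 CPM in TSK and none abundant enough to be tested.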

How the data were processed

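RNA from the dorsal skin of 3 TSK and 3 WT mice was analysed, with groups taken from the sample labels. The authors depleted ribosomal RNA, prepared stranded libraries, sequenced single-end reads of 50 bases (bcl2fastq 2.19.1.403), aligned them with STAR (version not given in the sources used here) to mm10 and quantified genes in Partek Flow 11.0. Whether the counting used strand is not given in the sources used here. The deposited table of gene counts holds estimated counts, since whole numbers (within 0.001) made up 43.3% to 45.4% of the values above 0 in a library, so reads matching more than 1 gene may have been divided. The test had been planned for raw counts, so the values were rounded first. The CPM table was deposited by the authors as counts per 1000000 counts of each library.

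Counts were tested with edgeR 4.0.16 (quasi-likelihood F test, TMM, filterByExpr) in R 4.3.3 over 19971 genes, with Benjamini-Hochberg adjustment over all of them. A positive log2 fold change means higher in TSK, and its SE was derived from the F statistic. Single values per mouse were compared by exact permutation in scipy 1.17.1, where 3 against 3 allows no p below 0.1. Labels do not give litters or batches. Genes named were Fbn1, the EDC genes past an adjusted p of 0.05, Lor, Ivl, Flg, Flg2, Hrnr and Rptn, the 3 with the highest mean CPM in the families Lce1, Lce3, Sprr1 and Sprr2 and any others averaging at least 1 CPM, and in each list those past 0.05 and the 2 most abundant. Crnn, Smcp, Sprr3, Lce1g, Lce6a, Ddx3y, Klf4, Krt1, Krt16, Tchhl1, S100a8, S100a9, S100a16, Myh1, Myh2 and the locus genes were named after their values were seen. The EDC genes and all lists were chosen with earlier results of these data known.

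Positions in the table were compared with GENCODE M21: all 46 starts matched, and the table's stops lie 1 base beyond the annotated ends, which are printed here. Shared sequence was counted in windows of 50 bases over all transcripts, and near-identical transcripts were found with BLAST 2.17.0. The motif letters were searched in RefSeq's promoter table, with no entry for 4 of the 46. The pipeline was checked on simulated data. Alternatives were other scalings (DESeq2's size factors, upper quartile, library size, basal keratinocyte markers), DESeq2 1.42.0, limma-voom and limma-trend (limma 3.58.1) on log2(deposited CPM + 1) and log2(deposited CPM + 0.1), other filters, near-identical genes summed, a block on the replicate number and the omission of each library. Those chosen after seeing the data were Krt1 and Krt10 as reference and the EDC sum without Flg2. The number of counts limits what can be said of the 19 EDC genes that were not tested.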

Additional observations from a re-analysis of the deposited data

How the results depend on the processing

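Over 18 alternatives, the 6 EDC genes that rose stayed above 0 in all 108 values and lost their call in 19. Lor passed in 17 of the 18, Kprp and Crct1 in 16, Lce1m in 14, and Sprr1a and Sprr4 in 13. With each library left out in turn, the number of EDC genes higher ranged from 0 (without WT 3, where 0.218% of all tested genes were higher) to 8 (without WT 1, 3.47%), with 1 without WT 2 (1.09%), 3 without TSK 1 (2.11%) and 5 each without TSK 2 (1.57%) or TSK 3 (1.58%), and the number past the study's thresholds in either direction was 0 in each case (0.00484% to 0.224% of all tested genes). Fewer libraries were fitted there, and fewer genes of the whole table were called in 5 of the 6 fits. The number higher was 4 with limma-voom (2.17% of all genes tested) and 10 with the basal keratinocyte markers as reference (8.99% of all genes tested), a scaling that also moved the median of all genes to 0.44 and that of the EDC genes to 0.96 and called Sprr2a2 lower, so that 1 gene was lower (0.23% of all genes tested). Library size only moved the median of all genes to 0.25. One gene, Sprr1b, was lower with DESeq2 (1.98% of the genes with an adjusted p were) and with no low-count filter (0.997% of all genes tested were). The number past the study's thresholds in either direction was 0 with upper quartile scaling (0.24% of all genes tested) and with limma-voom (0.11%), 4 with library size only (1.53%), 5 with DESeq2 (1.82%), with limma-trend at a pseudocount of 1 (1.42%) or 0.1 (1.65%) and with no low-count filter (1.02%), and 7 with the keratinocyte reference (4.97%), of which Sprr2a2 was lower. Where no construction is named, the cause was not tested. The summed EDC level differed by 0.73 to 1.36 on the log2 scale and its ratio to basal markers by 0.56 (with Krt1 and Krt10 as reference) to 1.47, always upward.

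Genes near 0 changed sign without passing. Ivl was at 0.12 with the keratinocyte reference and 0.0045 and 0.01 with limma-trend. Lce1f was at -0.04 (upper quartile), -0.13 (limma-voom) and -0.07 (replicate block), Lce1e at -0.01 (upper quartile), and Lce1j at 0.13 (library size), 0.28 (keratinocyte reference), 0.08 and 0.11 (limma-trend). With 1 library left out, the ranges that crossed 0 were -0.03 to 0.52 (Lce1d), -0.36 to 0.33 (Lce1e), -0.55 to 0.29 (Lce1f), -0.09 to 0.39 (Lce1h), -0.15 to 0.39 (Lce1i) and -0.44 to 0.06 (Lce1j).

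The labels number the mice of both groups 1 to 3. The deviations of equally numbered libraries correlated at 0.0112, 0.167 and -0.0938, and 2 of the 6 libraries correlated best with their own number. The main test did not pair the mice. With 3 mice per group, these values cannot decide whether equal numbers mark litters, which the labels do not give. With the replicate block 6 EDC genes were higher (3.33% of all tested genes were), 0 lower (0.646%) and 5 past the study's thresholds in either direction (0.496%, against 1 gene and 0.29% without the block), the log2 fold change of Fbn1 was 2.54 and the median of the EDC genes 0.56.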
